A study of Homo sapiens with 6 samples.

Results

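The genes examined here are 45 genes of cell division, 26 that act in DNA replication and 19 that act in mitosis, out of 19777 genes measured on the arrays. They were taken from a list of names, with every probe set annotated to one of them alone (96 of 54613), and the log2 signals of a gene's probe sets were averaged. Panc-1 cells, a long-established human line derived from pancreatic cancer, were profiled on 6 Affymetrix Human Genome U133 Plus arrays. Of these, 3 were untreated controls and 3 came from cells treated for 48 h with porcine TGFβ at 5 ng/mL according to the labels (the methods state the same figure in nM, a conflict that is not settled here). All cultures were first kept without serum for 24 h, and per the methods the control cells then received plain medium. The groups are therefore 2 states of 1 cell line, both after serum withdrawal.

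Cells copy their DNA only after origins have been licensed, when the loading factors CDC6 and CDT1 place the MCM helicase on DNA. The E2F transcription factors drive the genes of this phase, while a later wave of genes for cyclin B, CDK1, kinetochores and the spindle is switched on before mitosis through CHR promoter elements and CCAAT boxes. TGFβ is known for restraining the division of many epithelial cells, and these genes are commonly read as a measure of how many cells are cycling. In bulk samples a smaller share of cycling cells and less message per cell cannot be told apart.

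Median array signals were 5.14 to 5.21 on the log2 scale, and correlations across genes, which are not independent replicates, were at least 0.9976 within groups and 0.989 to 0.990 between groups. The epithelial markers KRT8, KRT18 and EPCAM were above a signal of 100, KRT7 had 1 of its 4 probe sets there and KRT19 had none. They were not alike in the groups. The log2 difference, TGFβ minus untreated, was -2.18 for KRT8, -1.25 for KRT18, -0.80 for EPCAM, -0.66 for KRT19 and -0.010 for KRT7. None of the 14 measured markers of blood, endothelium, fibroblasts and acinar cells had a probe set at 100 (highest value on an array 5.85, against 6.64 for a signal of 100). The difference between the 3' and 5' control probe sets of ACTB, a measure of RNA integrity, went from 0.554 ± 0.031 to 0.335 ± 0.060 (log2, SD, n = 3), while that of GAPDH was -0.0096 ± 0.0096 and -0.028 ± 0.023, and their part in the results was not tested.

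Promoters of the members that moved furthest are shown because the classes differ in the elements they carry. The sequences are the 250 bases before the most upstream RefSeq start (GRCh38.p14), read 5′ to 3′ on the gene's strand, with every match in capitals. An E2F word was TTTCCCGC, TTTCGCGC, TTTGCCGC or TTTGGCGC, a CHR word TTTGAA or TTCGAA, and the CCAAT box CCAAT, each sought on both strands, so that words of different kinds may share bases. The replication genes shown are CDC6 at chr17:40287629-40287878 on the plus strand, PCNA at chr20:5126623-5126872 on the minus strand and MCM7 at chr7:100101398-100101647 on the minus strand, and the mitosis genes PLK1 at chr16:23678639-23678888 on the plus strand, CCNA2 at chr4:121823884-121824133 on the minus strand and CENPA at chr2:26785806-26786055 on the plus strand.
CDC6: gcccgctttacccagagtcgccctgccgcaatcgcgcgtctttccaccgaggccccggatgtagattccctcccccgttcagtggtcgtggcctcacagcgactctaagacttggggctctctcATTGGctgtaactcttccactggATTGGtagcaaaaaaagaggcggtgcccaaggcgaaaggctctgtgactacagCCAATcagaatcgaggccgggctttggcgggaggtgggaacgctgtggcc
PCNA: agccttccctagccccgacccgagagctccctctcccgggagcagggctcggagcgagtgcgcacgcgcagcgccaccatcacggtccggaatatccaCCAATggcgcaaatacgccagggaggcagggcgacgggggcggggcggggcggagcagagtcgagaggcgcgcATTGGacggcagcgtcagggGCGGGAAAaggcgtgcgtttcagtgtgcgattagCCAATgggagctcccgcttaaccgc
MCM7: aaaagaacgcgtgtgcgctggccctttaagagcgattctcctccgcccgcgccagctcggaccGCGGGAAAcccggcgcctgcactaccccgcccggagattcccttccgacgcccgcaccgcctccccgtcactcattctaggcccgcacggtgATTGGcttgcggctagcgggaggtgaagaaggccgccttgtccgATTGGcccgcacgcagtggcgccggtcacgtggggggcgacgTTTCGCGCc
PLK1: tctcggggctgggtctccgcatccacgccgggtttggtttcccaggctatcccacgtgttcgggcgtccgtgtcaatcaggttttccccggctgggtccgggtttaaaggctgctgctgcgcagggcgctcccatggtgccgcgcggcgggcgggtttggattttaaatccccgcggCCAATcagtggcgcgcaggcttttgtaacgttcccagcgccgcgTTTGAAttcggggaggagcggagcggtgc
CCNA2: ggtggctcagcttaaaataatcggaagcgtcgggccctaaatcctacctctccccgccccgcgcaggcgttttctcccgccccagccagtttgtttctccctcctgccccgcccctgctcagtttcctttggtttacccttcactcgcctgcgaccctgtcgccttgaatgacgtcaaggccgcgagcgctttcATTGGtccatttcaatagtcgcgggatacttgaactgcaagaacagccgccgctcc
CENPA: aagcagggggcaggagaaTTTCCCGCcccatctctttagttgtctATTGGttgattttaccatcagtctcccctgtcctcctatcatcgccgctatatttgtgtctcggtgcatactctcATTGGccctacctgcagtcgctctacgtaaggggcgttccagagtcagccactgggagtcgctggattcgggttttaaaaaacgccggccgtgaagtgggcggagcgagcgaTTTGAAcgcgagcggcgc

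In these windows PLK1 and CENPA carried TTTGAA 29 and 18 bases before the start, PCNA carried an E2F word (GCGGGAAA, its reverse) 59 bases before it, and MCM7 carried E2F words 187 and 9 bases before it. CENPA also held an E2F word 232 bases before its start. CDC6 and CCNA2 held CCAAT boxes and no match to the other listed words. Only exact copies of the listed words were sought, so elements spelled otherwise would be missed. A promoter was available for 38 of the 45 members. Those of MCM4, MCM5, CCNE2, AURKA, TPX2, BIRC5 and UBE2C are not shown or counted. E2F words were found in 12 of 23 replication promoters (52.2%) and 1 of 15 mitosis promoters (6.67%), against 2.78% of the 27305 genes with a promoter. CHR words went the other way, with 2 of 23 replication (8.7%) and 8 of 15 mitosis promoters (53.3%), against 14.6%. CCAAT boxes were held by 13 of 23 and 12 of 15, against 33.0%. A match is a string of letters and not a measured binding site.

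Taken by their medians, replication and mitosis genes stayed close to their untreated level. The median log2 fold change, TGFβ minus untreated, was 0.0013 over the 26 replication genes and 0.028 over the 19 mitosis genes, against 0.013 over all genes. The origin licensing factor CDC6 (1.57-fold), the mitotic kinase PLK1 (1.44-fold) and cyclin A, CCNA2 (1.31-fold), rose. The largest fall, averaged over all probe sets of a gene, was 1.16-fold (TOP2A). With limma and a Benjamini-Hochberg adjusted p under 0.05, 12 of the 45 members were called, 9 higher and 3 lower. Over all 19777 genes 26.8% were called, with 12.7% higher and 14.1% lower, so the share of members called (26.7%) lay at that of all genes. All 45 members had at least 1 probe set with a mean signal of 100 or more in either group, as did 10115 of the 19777 genes, and of these 43.3% were called. At an unadjusted p under 0.05 stood 22 of the 45 members, against 37.3% of all genes and 56.5% of those with such a probe set. With that limit, which the study used, applied to every probe set, 19 of 45 members (42.2%) were called, 13 higher and 6 lower, against 58.7% of the genes that passed (27.7% higher, 31.0% lower). CDC6, PLK1 and CCNA2 were called in every setting tried for single genes, and each of the other 9 lost its call in some of them.

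Large changes were few as well. Only CDC6 combined a call with a 1.5-fold or larger change, with or without the limit on signal, against 5.48% of all genes and 13.4% of the genes that passed the limit. The 95% interval of the difference lay inside a 1.5-fold change either way for 43 of 45 members (89.8% of all genes and 83.1% of those with a probe set at 100), the other two being CDC6 and PLK1. The values on the TGFβ arrays lay wholly above or below the untreated ones for 25 members, 16 above and 9 below, a share of 55.6% against 43.4% of all genes and 65.2% of those with a probe set at 100.

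**Figure D1:**
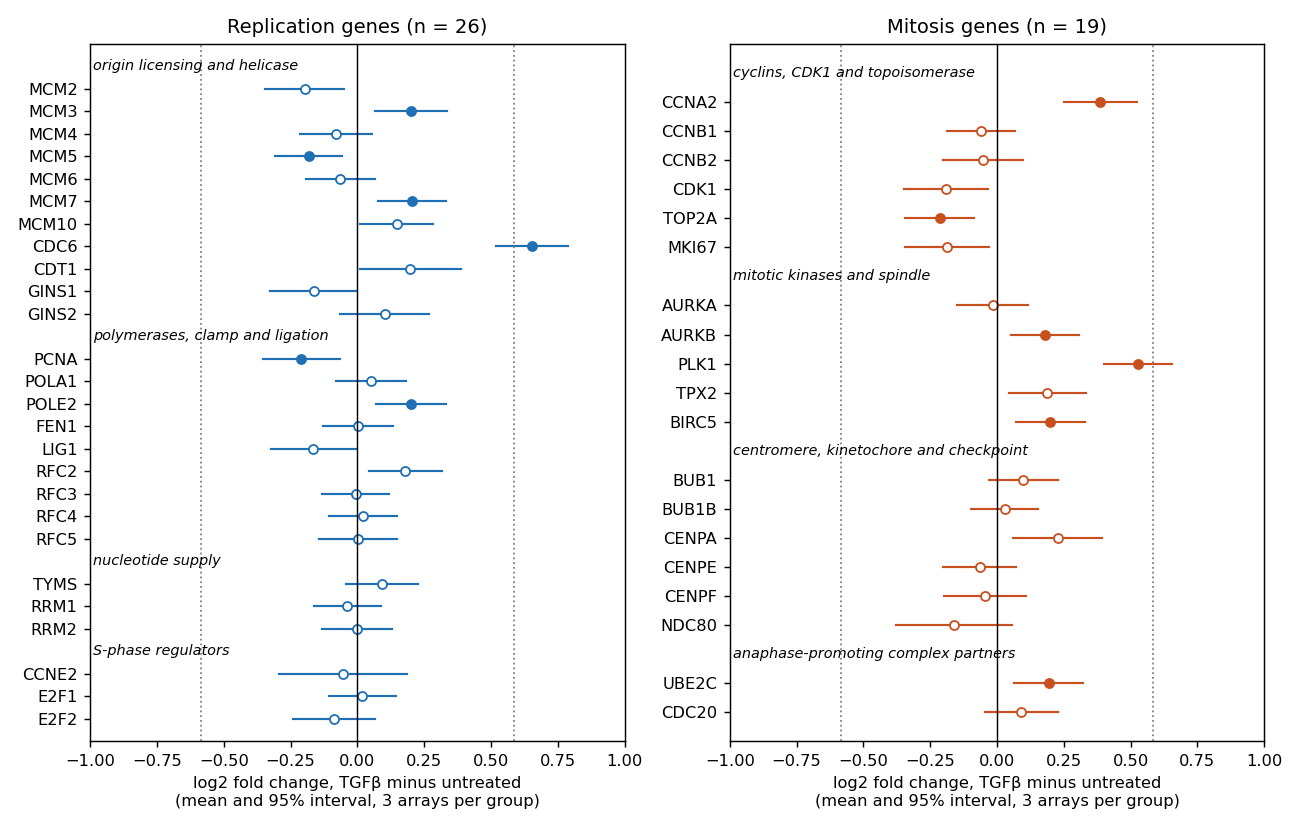
The horizontal axis is the log2 fold change of each member, TGFβ minus untreated, with its 95% interval (3 arrays per group), filled where limma's adjusted p was under 0.05, and the dotted lines mark a 1.5-fold change. CDC6 at 0.65 and PLK1 at 0.53 are the only members whose intervals cross a dotted line.

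Of the 11 genes of origin licensing and the helicase, 3 rose, 1 fell and 7 were not called. The share called was 36.4%, against 26.8% of all genes and 43.3% of those with a probe set at 100. CDC6, which loads the helicase, had log2 signals of 8.61, 8.74 and 8.64 on the untreated arrays and 9.29, 9.32 and 9.34 on the TGFβ arrays. All TGFβ values lay above all untreated ones, and the rise of 0.65 (SE 0.056, adjusted p = 0.00031, limma) was the largest of the 45. The messages for the subunits of the MCM2 to MCM7 ring, which unwinds DNA as a single complex, did not all move the same way. MCM7 rose from 9.61, 9.63 and 9.67 to 9.84, 9.83 and 9.85 (0.20, SE 0.054, adjusted p = 0.0307), and MCM3 rose from 9.76, 9.73 and 9.82 to 10.01, 9.94 and 9.95 (0.20, SE 0.057, adjusted p = 0.0396). MCM5 fell from 8.61, 8.59 and 8.63 to 8.42, 8.39 and 8.47 (-0.18, SE 0.053, adjusted p = 0.0435), and the fall was -0.29 in its brighter probe set and -0.077 (adjusted p = 0.558 over all probe sets) in the other. For each of these 3 subunits the groups did not overlap, as for 65.2% of genes with a probe set at 100. Their messages thus held rises and a fall of like size. MCM3 and MCM5 kept their calls in 6 of 12 alternative settings and MCM7 in 7. MCM2 stood at 10.45, 10.45 and 10.55 without and 10.32, 10.30 and 10.24 with TGFβ, lower on every TGFβ array but short of the threshold (-0.20, SE 0.062, adjusted p = 0.0576). MCM4 (-0.081) and MCM6 (-0.065) had adjusted p = 0.371 and 0.457. With probe sets below the limit left out, MCM4 was at -0.14 (adjusted p = 0.0575) and MCM6 at 0.019 (adjusted p = 0.757).

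The licensing factor CDT1 had 6.83, 6.80 and 6.997 without and 7.24, 6.93 and 7.05 with TGFβ. Its groups overlapped, and the difference of 0.20 (95% interval 0.0079 to 0.387) was not called (adjusted p = 0.120). It averages a probe set below the limit that was called higher (0.37, adjusted p = 0.0338) and one above it at 0.023 (adjusted p = 0.912), and it was 0.09 without replicate 1. The SD on the TGFβ arrays was 0.158, against a median of 0.044 over the members. MCM10, which helps to activate the helicase, differed by 0.15 (adjusted p = 0.109). Its brightest probe set was called higher (0.31, adjusted p = 0.0187 over all probe sets), and the others gave 0.052 and 0.080. The helicase partners GINS1 and GINS2 differed by -0.16 (adjusted p = 0.133) and 0.10 (adjusted p = 0.354), and the second of these averages 3 probe sets that moved unequally.

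Among the 9 genes of polymerases, clamp and ligation, 1 rose, 1 fell and 7 were not called. The share called was 22.2%, against 26.8% of all genes and 43.3% of those with a probe set at 100. PCNA, the sliding clamp that holds polymerases on DNA, fell from 11.80, 11.89 and 11.87 to 11.70, 11.64 and 11.59 (-0.21, SE 0.061, adjusted p = 0.0425). POLE2, a subunit of the leading strand polymerase, rose from 8.38, 8.42 and 8.32 to 8.53, 8.67 and 8.52 (0.20, SE 0.055, adjusted p = 0.0364). In both genes the groups did not overlap, as for 65.2% of genes with a probe set at 100. The clamp loader subunits RFC2 (0.18), RFC3 (-0.0068), RFC4 (0.021) and RFC5 (0.0012) were not called, with adjusted p = 0.0601 for RFC2 and 0.824 to 0.992 for the others. The flap nuclease FEN1 (0.0015), the polymerase subunit POLA1 (0.051) and the ligase LIG1 (-0.16) were not called either. RFC4 varied little, with values of 10.17 to 10.18 without and 10.18 to 10.21 with TGFβ, and a 95% interval of -0.106 to 0.148.

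None of the 3 genes of nucleotide supply and none of the 3 S-phase regulators was called by limma, and 0 of the 6 had an unadjusted p under 0.05. Over all genes 26.8% were called and 37.3% had such a p, or 43.3% and 56.5% of those with a probe set at 100. With probe sets below the limit left out, TYMS was at 0.15 and E2F2 at -0.14 (limma, unadjusted p = 0.0461 and 0.0405). Neither was called then (limma, adjusted p = 0.0734 and 0.0658). Ribonucleotide reductase, which makes deoxynucleotides, had RRM1 at -0.038 (95% interval -0.165 to 0.0889) and RRM2 at -0.0016 (-0.133 to 0.130). Thymidylate synthase, TYMS, was at 0.091 (-0.0423 to 0.225). E2F1 and E2F2, activators of S-phase genes, were at 0.019 (-0.108 to 0.146) and -0.088 (-0.241 to 0.0658). Cyclin E2, CCNE2, had the widest interval of the 45 members (-0.296 to 0.187), with 7.88 to 8.11 on the untreated and 7.74 to 8.06 on the TGFβ arrays.

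**Figure D2:**
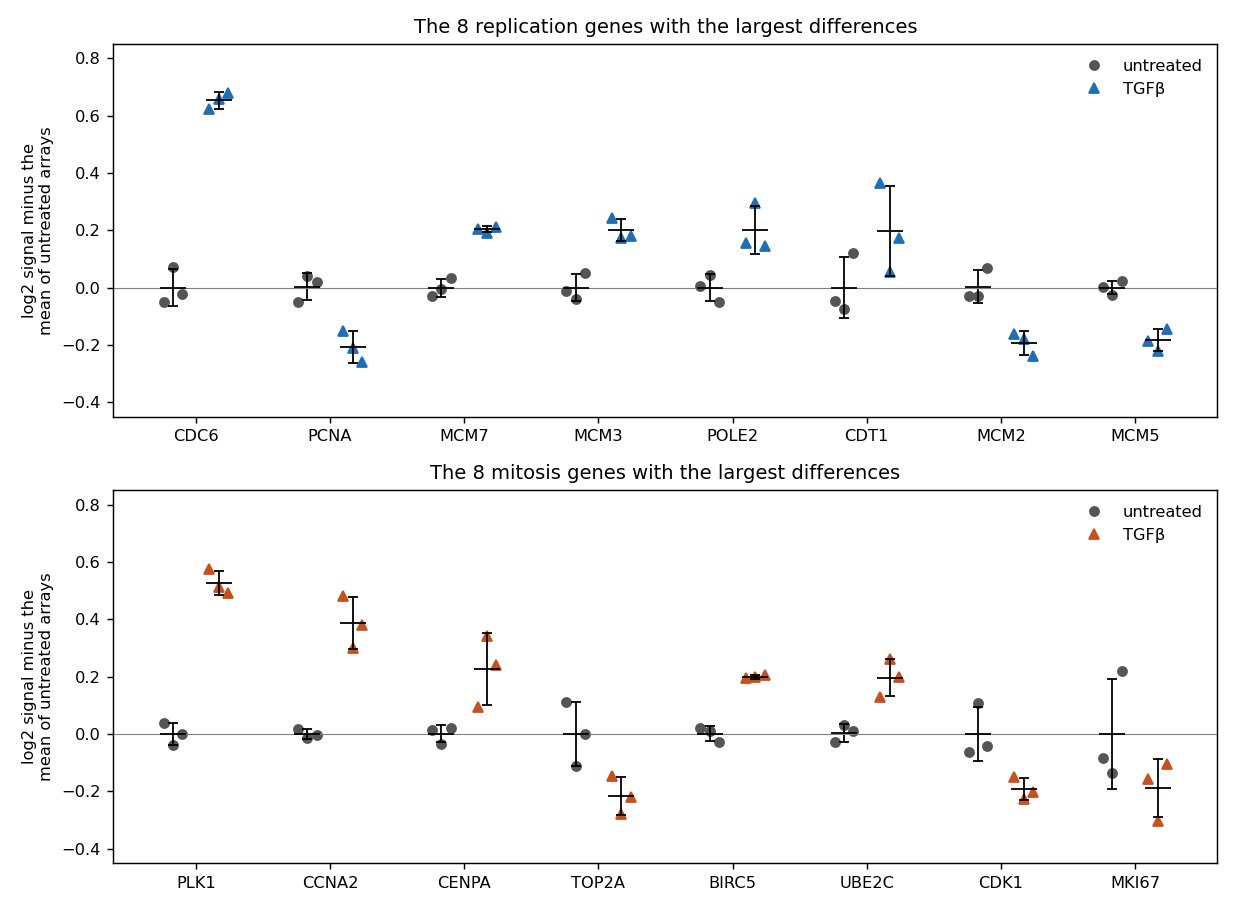
Log2 signals of each gene on every array, drawn on the vertical axis relative to the gene's untreated mean, are shown as circles (3 untreated) and triangles (3 treated), and bars give the mean and SD. CDC6 and PLK1 stand 0.65 and 0.53 above their untreated mean, while CDT1 and MKI67 overlap between the groups.

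Of the 19 mitosis genes, 5 rose, 1 fell and 13 were not called. The share called was 31.6%, against 26.8% of all genes and 43.3% of those with a probe set at 100. Among the 5 mitotic kinases and spindle genes, 3 rose and none fell. Among 20 further genes of that role, 3 rose and 3 fell. PLK1, which drives centrosome maturation and mitotic entry, rose from 7.36, 7.28 and 7.31 to 7.89, 7.83 and 7.81 (0.53, SE 0.054, adjusted p = 0.000617). BIRC5, the survivin subunit of the chromosomal passenger complex, rose from 8.58, 8.57 and 8.53 to 8.75, 8.75 and 8.76 (0.20, SE 0.054, adjusted p = 0.0337). Over all probe sets its _x_at probe set was called higher (0.30, limma, adjusted p = 0.0384). Its others gave 0.14, 0.19 and 0.17 and were not called (limma, adjusted p = 0.139 to 0.397). AURKB, the kinase of the chromosomal passenger complex, rose from 6.01, 6.11 and 6.05 to 6.21, 6.29 and 6.19 (0.18, SE 0.054). Its adjusted p of 0.0499 was the closest to the threshold of any called member, and with its probe set below the limit left out the value was 0.36 (adjusted p = 0.00117). The groups of PLK1, BIRC5 and AURKB did not overlap, as for 65.2% of genes with a probe set at 100. TPX2, which brings AURKA to the spindle, was at 10.99 to 11.12 without and 11.16 to 11.29 with TGFβ, no overlap but no call (0.19, adjusted p = 0.0634). AURKA itself was at -0.016 (adjusted p = 0.878).

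Among the 6 genes for cyclins, CDK1, topoisomerase and the proliferation antigen, 1 rose, 1 fell and 5 had a negative difference. The share called was 33.3%, against 26.8% of all genes and 43.3% of those with a probe set at 100. CCNA2, which acts from S phase to early mitosis, rose from 7.73, 7.70 and 7.71 to 8.19, 8.01 and 8.09 (0.39, SE 0.058, adjusted p = 0.00309). TOP2A, which untangles sister chromatids, fell from 8.44, 8.21 and 8.33 to 8.18, 8.05 and 8.10 (-0.22, SE 0.055, adjusted p = 0.0269). For both the groups did not overlap, as for 65.2% of genes with a probe set at 100, and the directions were opposite. TOP2A averages 3 probe sets, of which 2 had a signal of 100 or more. These gave -0.22 and -0.31 (adjusted p = 0.0952 and 0.0192 over all probe sets, limma). With the probe set below the limit left out, TOP2A was at -0.26 (adjusted p = 0.00629). CDK1, the kinase that starts mitosis, was at 8.76, 8.93 and 8.78 without and 8.67, 8.59 and 8.62 with TGFβ (-0.19, SE 0.066, adjusted p = 0.0763). MKI67, which encodes the Ki-67 antigen, was at 7.77, 7.71 and 8.07 without and 7.69, 7.55 and 7.75 with TGFβ (-0.19, SE 0.066, adjusted p = 0.0807). CDK1 was thus lower on every TGFβ array, while the groups of MKI67 overlapped, and neither passed. The B cyclins CCNB1 (-0.061) and CCNB2 (-0.053), partners of CDK1, had adjusted p = 0.477 and 0.600.

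None of the 6 genes of centromere, kinetochore and checkpoint was called by limma, and 1 had an unadjusted p under 0.05 (CENPA). Over all genes 26.8% were called and 37.3% had such a p. CENPA, the histone that marks centromeres, was at 8.61, 8.56 and 8.61 without and 8.69, 8.93 and 8.83 with TGFβ. Its groups did not overlap, and its difference of 0.23 was the third largest among the mitosis genes, with adjusted p = 0.0553. The value rests on 1 probe set, since the other names a second gene and was left out. The checkpoint kinases BUB1 (0.099) and BUB1B (0.028) and the kinetochore genes CENPE (-0.065), CENPF (-0.045) and NDC80 (-0.16) had adjusted p = 0.249 to 0.756. NDC80 differed among its own TGFβ arrays, with 9.17, 8.78 and 8.79 against 9.05 to 9.11 without, and without replicate 1 it was called lower (-0.30, adjusted p = 0.0166). Of the partners of the anaphase-promoting complex, which marks mitotic proteins for destruction, the conjugating enzyme UBE2C rose from 10.96 to 11.02 on the untreated arrays to 11.12, 11.25 and 11.19 (0.19, SE 0.054, adjusted p = 0.0381). The activator CDC20 was at 0.091 (adjusted p = 0.309).

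Set side by side, 6 of 26 replication and 6 of 19 mitosis genes were called (23.1% and 31.6%). Of all genes 26.8% were called, and of those with a probe set at 100, as every member had, 43.3%. Differences ran from -0.21 to 0.65 for replication and from -0.22 to 0.53 for mitosis genes, with median absolute values of 0.097 and 0.18, against 0.11 over all genes and 0.17 over genes with a probe set at 100. When each member was centred on its mean over the 6 arrays, the median over replication genes was -0.010 to -0.0057 on the untreated and -0.017 to 0.030 on the TGFβ arrays. For mitosis genes the ranges were -0.047 to 0.017 and 0.011 to 0.028. In both classes the ranges of the groups overlapped. Within the pairs of like-numbered arrays, the median difference was 0.045, 0.0023 and 0.012 for replication and 0.082, 0.043 and 0.025 for mitosis genes, against -0.018, 0.026 and 0.022 for all genes. It was above 0 in 3 of 3 pairs for both classes. The difference between the classes was not tested, because the members were chosen with results known.

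**Figure D3:**
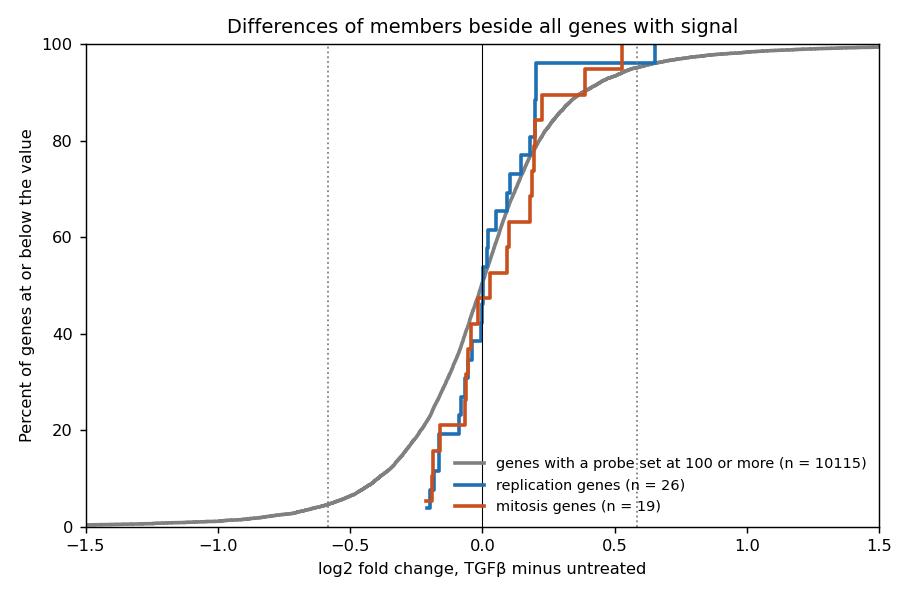
The horizontal axis is the log2 fold change, TGFβ minus untreated, and the vertical axis the percent of genes at or below it, for replication genes, mitosis genes and the 10115 genes with a probe set at 100 or more, with dotted lines at a 1.5-fold change. The curves of replication and mitosis genes start at -0.21 and -0.22, where the curve of all genes with signal has a tail that goes on to lower values.

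Of 23 members with several probe sets at a signal of 100 or more, 17 had the same sign in all of them, 9 of 14 replication and 8 of 9 mitosis genes. Single probe sets were called in 16 of 96 cases, 11 higher and 5 lower, against 20.2% of all probe sets (9.22% higher, 11.0% lower). Only the 2 of CDC6 were called with a 1.5-fold or larger change, which 6.41% of all probe sets were. CDC6 gave 0.67 and 0.64 in its 2 probe sets and CCNA2 0.46 and 0.31, each called (adjusted p = 0.00054 to 0.022). The 4 probe sets of MKI67 gave -0.33 (adjusted p = 0.0135), -0.30, -0.088 and -0.036, and those of CDK1 at 100 or more gave -0.31 (adjusted p = 0.0302), -0.11 and -0.072, so that both genes held 1 called and further uncalled falls. GINS2 had 1 probe set at 100 or more, which rose (0.32, adjusted p = 0.0192), and 2 below it at 0.052 and -0.065. RFC5 had the widest range among probe sets at 100 or more, from -0.17 to 0.20. MCM3, PCNA, POLE2 and UBE2C, called as genes, rest on 1 probe set each. These were not called over all probe sets (adjusted p = 0.0963 to 0.104, limma), nor were those of MCM7 (adjusted p = 0.0884 and 0.108).

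**Figure D4:**
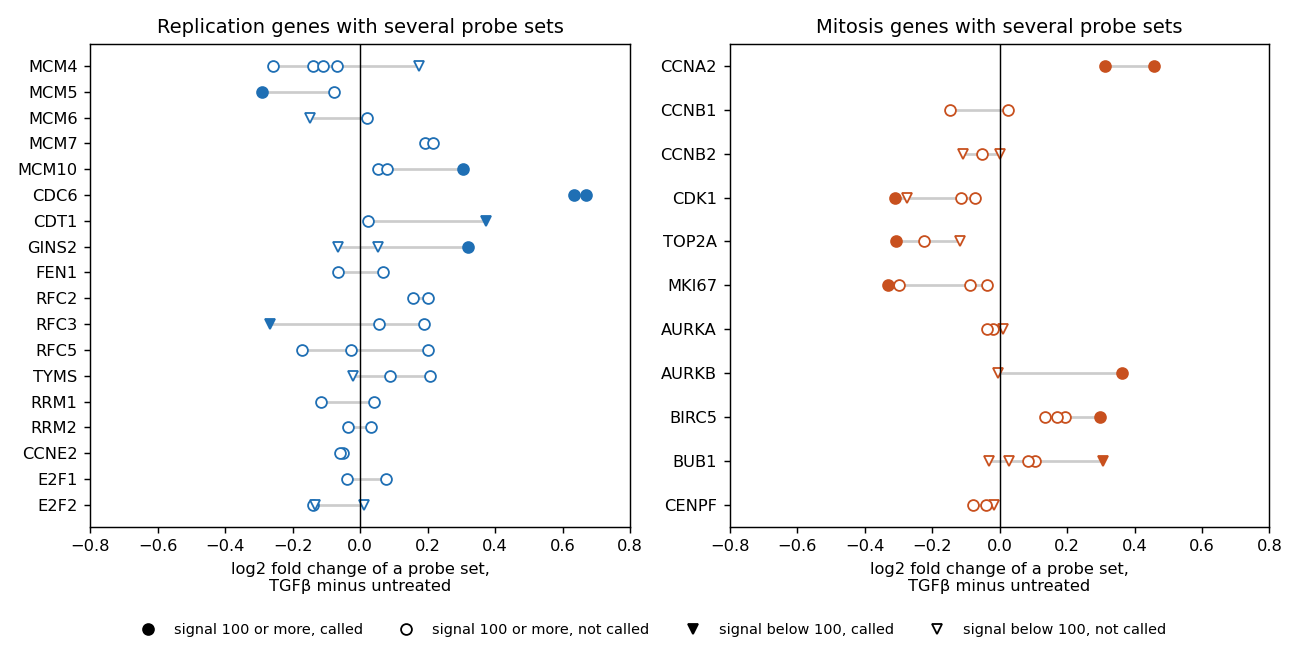
Each point is 1 probe set of a member with several, placed by its log2 fold change, TGFβ minus untreated (3 arrays per group), with circles for a mean signal of 100 or more in either group, triangles below it, and filling for an adjusted p under 0.05 over all probe sets. The probe sets of CDC6 lie together at 0.64 and 0.67, while those of RFC5 lie on both sides of 0.

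Other genes of the same processes were listed by role, and those with a probe set of their own were compared in the same way. Of 61 further replication genes, 16 rose and 8 fell (median log2 fold change 0.072), and of 85 further mitosis genes, 16 rose and 8 fell (median 0.025), so that 39.3% and 28.2% were called against 26.8% of all genes and 43.3% of those with a probe set at 100, which 59 and 78 of them had. Against 5.48% of all genes and 965 of the 10115 with a probe set at 100, changes of at least 1.5-fold were called in 5 of the 61 and 2 of the 85.

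The largest of these was in CTPS1, the CTP synthase that supplies cytidine nucleotides, which rose from 9.59, 9.61 and 9.59 to 11.57, 11.49 and 11.34, 3.65-fold (log2 fold change 1.87, SE 0.064, adjusted p = 9.68e-06, 1 probe set). It lay far outside the range of the members, in which RRM1, RRM2 and TYMS of the same role had no call. SLC29A1, a nucleoside transporter, rose as well (0.63, SE 0.070, adjusted p = 0.000888). E2F7, a repressor of the E2F family, rose from 6.47, 6.45 and 6.51 to 7.23, 7.14 and 6.98 (0.64, SE 0.071, adjusted p = 0.000861), and by 1.01 in its brighter probe set. RBL2, a pocket protein that binds E2F factors in resting cells, fell from 8.66, 8.65 and 8.57 to 7.98, 7.66 and 7.87 (-0.79, SE 0.076, adjusted p = 0.000509). E2F7 and RBL2 thus moved in opposite directions without overlap, while E2F1 and E2F2 were not called. Of the other E2F factors listed, E2F3 (0.28), E2F4 (0.20) and E2F6 (0.25) were called higher (adjusted p = 0.0266, 0.0439 and 0.0237). E2F5 and E2F8 were not called. The pocket protein RB1 was called lower (-0.22, adjusted p = 0.0213), and RBL1 was not called. TFDP2, a partner of E2F factors, fell (-0.61, SE 0.062, adjusted p = 0.00063), but its brightest probe set gave -0.11 (adjusted p = 0.278). The origin recognition subunit ORC4 fell too (-0.43, SE 0.055, adjusted p = 0.00155).

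Among further mitosis genes, CENPB, a centromere DNA-binding protein, rose from 8.16, 8.04 and 8.29 to 8.66, 8.95 and 8.86 (0.66, SE 0.086, adjusted p = 0.0017). MASTL, a kinase that shields mitotic phosphorylation, rose (0.56, SE 0.087, adjusted p = 0.00364), as did HJURP, the chaperone that deposits CENPA (0.45, SE 0.056, adjusted p = 0.00143). CDC25B, a phosphatase that activates CDK1, fell from 11.66, 11.54 and 11.87 to 11.11, 11.03 and 11.12 (-0.60, SE 0.067, adjusted p = 0.000888). ECT2, which directs the cleavage furrow (-0.43, SE 0.055, adjusted p = 0.00167), and the cohesin subunit STAG2 (-0.41, SE 0.064, adjusted p = 0.00365) fell as well.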

How the data were processed

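The deposited file held log2 signals, covering 54675 probe sets on each array. How the authors summarised or normalised them before deposit is not given in the sources used. The 62 control probe sets were left out of the tests. The platform annotation named exactly 1 gene for 41091 probe sets, several for 1801 and none for 11721. Genes were matched by Entrez ID, and symbols updated from RefSeq (GRCh38.p14) for 19735 of 19777.

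A gene's log2 value was the mean of all its probe sets, with no filter on signal. The study's limit (a mean signal of 100 in either group) was an alternative. TGFβ was compared with untreated with limma (version 3.58.1, R 4.3.3; two-sided moderated test), and the fit took the replicate number as a block, after the paired test of the methods, leaving 2 residual and 4.82 prior degrees of freedom. P-values were adjusted by Benjamini-Hochberg over all genes, or all probe sets. They set a difference against the spread between repeats of the experiment in 1 cell line. In limma that spread is drawn from all genes as well as from the gene itself, here with more prior than residual degrees of freedom. The number of arrays limits the precision. The SE is that of the model, and 95% intervals are not adjusted. Members and lists were chosen with earlier results of these data known. Values by array were given for the 8 replication and 8 mitosis members with the largest differences, and in part for others. Further genes of the processes were named where they were among the 3 largest called rises or falls of their class. The other listed E2F and pocket protein genes were named beside them. The tests were tried on simulated data first. Python 3.11.15 (pandas 2.3.3, matplotlib 3.10.9) served for motif counts and plots.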

Additional observations from a re-analysis of the deposited data

How the results depend on the processing

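CDC6, PLK1 and CCNA2 were called higher under all 12 alternatives tried for single genes, which did not include the methods' t-test. Each of the other 9 called members lost its call under some (MCM3, MCM5, AURKB and UBE2C under 6 of 12, MCM7, PCNA, POLE2 and BIRC5 under 5, TOP2A under 4) and kept its direction. CDK1, not called in the main setting, was called lower under 8 of 12, and CENPA higher under 7. Calls of 5303 genes, 6 replication and 6 mitosis members became 94, 0 and 0 with the methods' paired t-test after Benjamini-Hochberg adjustment, which called 5535, 6 and 7 at an unadjusted p under 0.05. With arrays centred on their medians 5028 of all genes were called, with 1 replication member (CDC6) and 4 mitosis members (PLK1, CCNA2, TOP2A and CENPA). CENPA was not called in the main setting. Probe sets ending in _x_at or _s_at were left out only of genes that had others. Without them 2 and 2 members (CDC6, MCM7, PLK1 and CCNA2) and 4774 of all genes were called. MCM7 has only _s_at probe sets, which stayed in, so its call does not test this setting. With the study's limit on signal, applied in either group or over all arrays, 9 and 10 members were called. The genes called were then 5934 of 10115 and 5701 of 9841. Leaving out each replicate gave 1 to 3 replication and 2 to 8 mitosis members and 3619 to 5306 of all genes, with medians of -0.0085 to 0.028 (0.028 without replicate 2) for replication and 0.026 to 0.03 for mitosis members. The fewest replication calls came without replicate 2 and without replicate 3 (1 each), and the fewest mitosis calls likewise (2 each), where CDC6, PLK1 and CCNA2 were the members called.

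Without the replicate block 8 replication, 9 mitosis and 5987 of all genes were called. Deviations from group means of arrays with the same number correlated at -0.221, 0.0588 and -0.0201 over genes, and 1 of the 6 arrays correlated best with its own number, so the data do not show that the numbers pair the arrays, and the block follows the methods.

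Sign changes were found in 12 members, of up to 0.123 after the change and none called: with the signal limit, in MCM6 (0.0193) and RFC3 (0.123); with 16 added before the logarithm, in RFC3 (0.0318); without _x_at and _s_at probe sets, in GINS2 (-0.0064), E2F1 (-0.0402) and AURKA (0.0092); with the brightest probe set, in MCM6 (0.0193), FEN1 (-0.0659), RFC3 (0.0567), E2F1 (-0.0402) and CCNB1 (0.0261); and with a replicate left out, in FEN1 (-0.0252 to 0.0300), RFC5 (-0.0331 to 0.0579), RRM2 (-0.0184 to 0.028), CCNE2 (-0.165 to 0.101), CCNB2 (-0.102 to 0.00401), AURKA (-0.0401 to 0.017) and CENPF (-0.091 to 0.0242). MCM5 was -0.077 without _x_at and _s_at probe sets (adjusted p = 0.443). The cause of these changes was not tested.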
